A study of Mus musculus with 6 samples.

Results

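The potassium and HCN channel subunits measured here were 81 genes of 18193 on the array, read by 159 probe sets. A gene was a member when at least 1 probe set named it alone and its symbol was Kcn followed by a subfamily letter code and a number, or Hcn followed by 1 of the HCN numbers. Kcnj10, the inward rectifier of Müller glia, was left to the glial genes and is not a member. The rule used names only, and each gene was read by its brightest probe set (mean over all arrays). The members were 31 pore subunits of voltage-gated (Kv) channels, 11 Kv accessory subunits, 14 inward rectifiers (Kir), 12 subunits of the K2P leak channels, 11 subunits of calcium- or sodium-activated channels (KCa, with the BK accessory subunits) and 2 HCN subunits. Another 14 symbols of the rule stand in the gene reference and were not analysed here. The retinas came from 3 Trim9 KO mice and 3 WT littermates, all adult, with no age in days given. The KO allele lacks exon 1 of Trim9, removed with Cre recombinase by a cross to CMV-cre mice, and this driver is not restricted to the retina. Biotin-labelled RNA of each retina sample was read on 1 Affymetrix mouse genome array. The labels give no other treatment, and a remark on embryos was set aside because tissue, title and design all say adult.

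Potassium channels bring a neuron back to rest after it is excited, and they set how strongly and how fast it responds. Kv channels open when the membrane depolarizes, Kir and K2P channels hold the resting potential, KCa channels open on intracellular calcium, and HCN channels open when the membrane hyperpolarizes and then pass sodium as well as potassium. In the retina, photoreceptors shape their light response with a Kv current that contains the silent subunit Kcnv2 and with an HCN current, amacrine cells use BK and Kv3 channels, and the pigment epithelium transports potassium through Kcnj13.

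Signals were taken as log2(intensity + 16) and are called log2 intensities below, and a difference is the mean of the Trim9 KO arrays minus that of the WT arrays. The median of all 45037 probe sets was 8.31, and the measured markers of rods, cones, amacrine cells, ganglion cells and Müller glia were all above it. So were the 2 measured of 4 bipolar cell markers, but only 1 of 3 horizontal cell markers. This is the check of the tissue label. Trim9 itself had log2 intensities of 8.58 to 10.56 on the Trim9 KO arrays, against 10.72 to 12.05 on the WT arrays (difference -1.81, SE 0.99, limma adjusted p = 0.999), without overlap. The arrays were unequal, with median intensities of 252 to 807 on the Trim9 KO arrays, against 218 to 675 on the WT arrays, and the highest medians were on Trim9 KO replicate 1 and WT replicate 2. Trim9 KO replicate 1 also stood apart in pattern: across the 81 members its Pearson correlation with the other arrays was 0.27 to 0.39, where the other pairs of arrays had 0.48 to 0.89. The ratio of the 3' to the 5' probe set of Actb is higher when the 5' end of the transcript gives less signal. It was 2.83, 94.5 and 90.5 on Trim9 KO replicates 1, 2 and 3, against 20.2, 9.87 and 3.43 on WT replicates 1, 2 and 3. The parts of RNA integrity and labelling length in this ratio were not tested. Because the design holds 3 mice per genotype, an exact permutation test cannot give a p below 0.1.

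The channel genes were spread over dim and bright signals, and the Kv pore subunits held the upper end of the set. The members had a median log2 intensity of 8.92, against 9.30 for all genes, and 51 of the 81 (63.0%) lay above the median of all probe sets, against 66.3% of all genes. By class, the median was 9.59 for Kv pore subunits, 9.27 for Kv accessory subunits, 9.12 for KCa, 8.59 for K2P, 8.40 for Kir and 8.06 for HCN. This order depended in part on reading the brightest probe set. With the probe sets of each gene averaged, Kv pore stayed first (8.68). KCa (8.52) and K2P (8.27) were then above Kv accessory (8.09), and HCN (8.06) was above Kir (7.86). The classes overlapped almost wholly, since the Kv pore subunits alone ran between 6.76 and 13.32 and the Kir subunits between 5.76 and 11.82. Only 21 members were above their own array's median on all 6 arrays, and 14 of these were Kv pore subunits. Levels are a description with no test, and since probe sets of different genes bind with different strength, the order of their signals is not an order of transcript numbers.

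**Figure D1:**
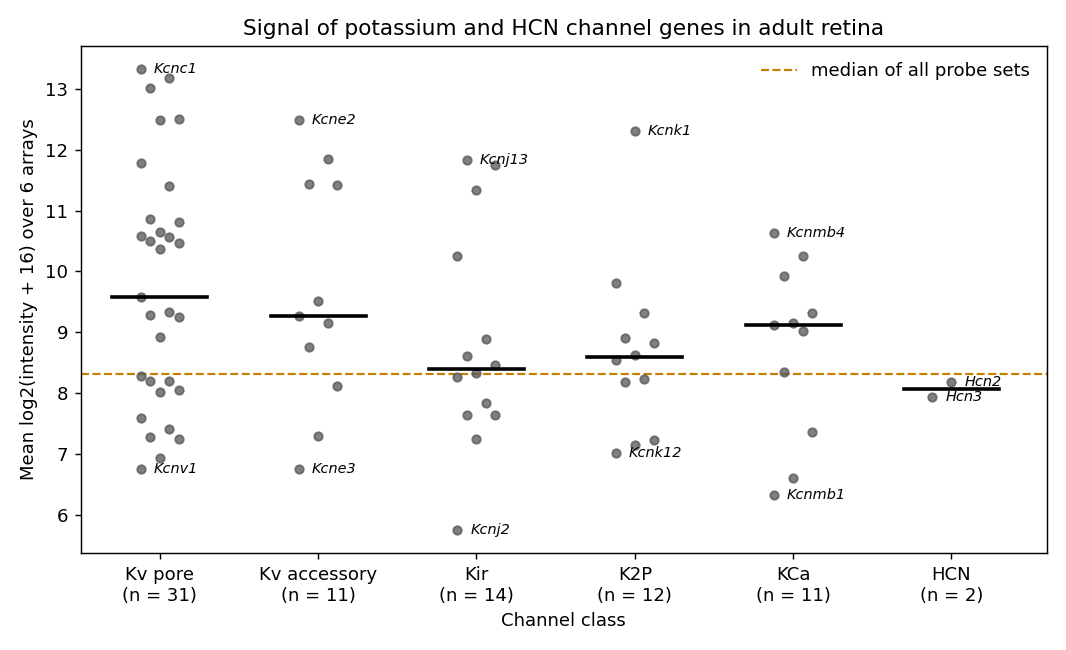
Mean log2 intensity over the 6 arrays (vertical axis) of each of the 81 channel subunit genes, 1 point per gene, by channel class (horizontal axis), with a bar at each class median. The Kv pore class reaches 13.32 with Kcnc1, and both HCN genes lie below the dashed line at 8.31, the median of all probe sets.

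Within the Kv pore class the Kv3 subunits Kcnc1 and Kcnc2, which close fast and let neurons fire at high rates, were at the top together with the delayed rectifier Kcna5. Kcnc1 had log2 intensities of 10.41, 15.05 and 14.20 on Trim9 KO replicates 1, 2 and 3, against 13.90, 12.91 and 13.46 on WT replicates 1, 2 and 3. Kcna5 had 11.42, 13.69 and 13.81 on the KO arrays, against 13.84, 12.82 and 13.45 on the WT arrays. Kcnc2 had 12.09, 12.80 and 14.07 on the KO arrays, against 13.61, 12.51 and 13.00 on the WT arrays. All 3 genes overlapped between genotypes, and each had its lowest value on Trim9 KO replicate 1, the array that stood apart. By subfamily the median was 13.01 for the 3 Kcnc genes, 10.59 for the 3 Kcnd genes, 10.37 for the 7 Kcna genes, 10.03 for the 6 Kcnh genes and 8.92 for the 3 Kcnq genes.

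The silent Kv subunits, which form no channel alone and modify others, were dim as a group, with a median of 8.02 over 9 genes and 2 of the 9 above the median of all probe sets. Kcnv2 was the brightest of them, with log2 intensities of 13.50, 13.15 and 11.86 on the KO arrays, against 11.85, 12.97 and 11.60 on the WT arrays. Loss of KCNV2 in people causes a cone dystrophy with supernormal rod responses. Its difference was 0.70 (SE 0.97, limma adjusted p = 0.999, exact permutation p = 0.2), within the spread of the arrays, and it was 0.37 to 1.19 when 1 array was left out (0.37 without Trim9 KO replicate 1, 0.43 without WT replicate 3, 1.19 without Trim9 KO replicate 3 and 1.12 without WT replicate 2). Its relative Kcnv1 was the dimmest Kv pore gene, at 5.85, 6.86 and 7.84 on the KO arrays, against 5.25, 6.39 and 8.39 on the WT arrays.

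Among the Kv accessory subunits, the brightest were Kcne2, a small membrane protein that changes the gating of several potassium channels, Kcnab1, a cytoplasmic beta subunit of Kv1 channels, and Kcnip4, a calcium-binding partner of Kv4 channels. Kcne2 had 13.04, 11.07 and 12.60 on the KO arrays, against 12.49, 12.73 and 13.04 on the WT arrays. Kcnab1 had 11.19, 10.71 and 12.58 on the KO arrays, against 12.30, 12.15 and 12.16 on the WT arrays. In both, the genotypes overlapped, and Trim9 KO replicate 2 was the lowest array. Kcne3, of the same family as Kcne2, was the dimmest, at 6.27, 7.99 and 5.25 on the KO arrays, against 5.62, 9.83 and 5.63 on the WT arrays.

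The brightest Kir gene was Kcnj13, with log2 intensities of 11.14, 11.42 and 13.90 on the KO arrays, against 12.43, 11.45 and 10.60 on the WT arrays. Trim9 KO replicate 3 was the highest, followed by WT replicate 1, so the genotypes overlapped (difference 0.66, SE 1.08, limma adjusted p = 0.999, exact permutation p = 0.7). Markers of the pigment epithelium, the sheet behind the retina that uses this channel, varied with it in part. Rpe65, its retinoid isomerase, had 10.62, 10.40 and 13.29 on the KO arrays, against 10.35, 10.89 and 10.86 on the WT arrays. Lrat, which esterifies retinol there, had 9.83, 11.72 and 15.59 on the KO arrays, against 12.69, 10.10 and 10.35 on the WT arrays. Both were highest on Trim9 KO replicate 3, as was Kcnj13, whereas Ttr and Best1 were highest on Trim9 KO replicate 1. The mean of the 4 markers was 11.8 to 13.2 on the KO arrays, against 10.6 to 11.9 on the WT arrays, and 3 of the 4 were above the median of all probe sets. The part of pigment epithelium in the Kcnj13 values was not tested. In RNA of a whole tissue, fewer cells of a type and less RNA per cell cannot be told apart. Without Trim9 KO replicate 3 the difference was -0.22.

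The other bright Kir genes were Kcnj14, a strong inward rectifier of neurons, and Kcnj11, the pore of the ATP-sensitive channel. Kcnj14 had log2 intensities of 13.26, 10.24 and 8.08 on the KO arrays, against 9.79, 14.24 and 14.86 on the WT arrays. Kcnj11 had 9.32, 10.99 and 11.91 on the KO arrays, against 12.64, 11.01 and 12.13 on the WT arrays. Kcnj14 was high on Trim9 KO replicate 1 and WT replicates 2 and 3, where the Actb ratio was 2.83 to 9.87. It was low on the other arrays, where the ratio was 20.2 to 94.5. The part of RNA integrity or labelling length in these values was not tested. Kcnj2, the classic inward rectifier of muscle and heart, was the dimmest of all 81 genes, at 7.51, 4.71 and 4.25 on the KO arrays, against 4.61, 8.90 and 4.55 on the WT arrays.

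One K2P gene was far brighter than the rest of its class. Kcnk1, a weakly conducting leak channel, had 12.63, 12.17 and 12.99 on the KO arrays, against 12.71, 10.82 and 12.45 on the WT arrays. The acid-sensitive Kcnk3 came next, with 9.51, 10.03 and 10.16 on the KO arrays, against 8.85, 10.43 and 9.91 on the WT arrays. The mean over all arrays was 12.30 for Kcnk1 and 9.81 for Kcnk3, and the lowest Kcnk1 array was above the highest Kcnk3 array. Kcnk1 was the only K2P gene above the array median on all 6 arrays. On single arrays others came near it, as Kcnk10 with 12.27 on Trim9 KO replicate 1 and Kcnk4 with 10.74 on WT replicate 2. The other probe set of Kcnk1 had a mean of 8.69. Kcnk12, of the halothane-inhibited pair in this class, was the dimmest, at 9.35, 5.82 and 5.79 on the KO arrays, against 5.38, 8.03 and 7.75 on the WT arrays.

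The KCa class was led by 2 BK subunits. Kcnmb4, the neuronal beta subunit that slows BK gating, had 10.71, 11.58 and 10.59 on the KO arrays, against 8.77, 10.87 and 11.31 on the WT arrays. Kcnma1, the BK pore, had 11.38, 11.16 and 8.47 on the KO arrays, against 8.99, 11.07 and 10.48 on the WT arrays (difference 0.16, SE 1.11, limma adjusted p = 0.999, exact permutation p = 0.8). Kcnmb1, the beta subunit known from smooth muscle, was the dimmest, at 5.85, 5.86 and 7.32 on the KO arrays, against 8.02, 5.80 and 5.11 on the WT arrays. The neuronal and the smooth muscle beta subunits were thus at opposite ends of the class.

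Both HCN genes measured were dim and varied widely between arrays. Hcn2, which forms channels widely in brain, had log2 intensities of 6.20, 10.08 and 8.21 on the KO arrays, against 8.33, 6.70 and 9.56 on the WT arrays (difference -0.03, SE 1.22, limma adjusted p = 0.999, exact permutation p = 1). Hcn3 had 8.42, 5.87 and 8.10 on the KO arrays, against 5.13, 10.11 and 10.05 on the WT arrays (difference -0.97, SE 1.41, limma adjusted p = 0.999, exact permutation p = 0.6). In both genes the spread within a genotype was larger than the difference between genotypes. The sign of the Hcn2 difference turned with the scale and with the arrays used, and the Hcn3 difference was -2.62 without WT replicate 1, -0.17 without Trim9 KO replicate 2, -0.13 without WT replicate 2 and -0.15 without WT replicate 3.

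**Figure D2:**
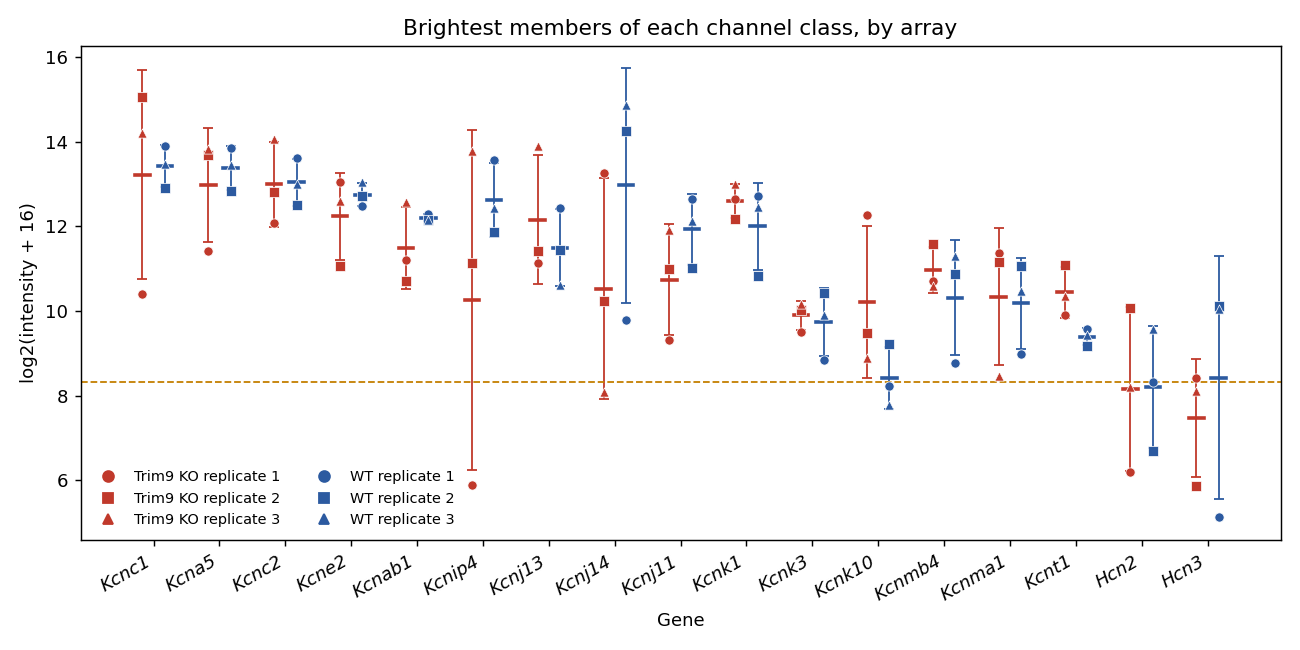
Log2 intensity (vertical axis) of the brightest members of the channel classes and of the HCN genes (horizontal axis) on each array, Trim9 KO arrays left of WT arrays for each gene. Bars show the mean and SD (n = 3 each), the dashed line the median of all probe sets, and the genotypes overlap for each gene but Kcnt1, while Trim9 KO replicate 1 is the lowest array for Kcnc1, Kcna5 and Kcnc2.

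Dim members varied more over the arrays than bright ones. The 30 members no brighter than the median probe set had a median range over the 6 arrays of 4.32 log2 units, and 21 of them (70.0%) were highest on Trim9 KO replicate 1 or WT replicate 2, the arrays with the highest medians. For all genes as dim as these the range was 4.19 and the share 71.1%. The 51 brighter members had a median range of 2.90 and a share of 51.0%, against 2.77 and 42.7% for all brighter genes. The steadiest members were Kcns3 (range 1.18), Kcnc4 (1.36), Kcnn1 (1.49) and Kcnh2 (1.54), and the least steady were Kcnip4 (7.88), Kcnj14 (6.78) and Kcng1 (6.65).

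The promoters were read for what the name rule did not use. RefSeq promoter windows of build GRCm38.p6 were found for 61 of the 81 members, and the 250 bases before the first listed start were searched. By a common definition of a CpG island (CG dinucleotides at over 0.6 of the number the base composition predicts, and over 50% G and C), 17 of the 61 windows were CpG-rich (27.9%), against 49.3% of 14368 measured genes. The share was 9 of 21 among Kv pore subunits (42.9%) and 1 of 9 among Kv accessory subunits (11.1%), and it was 7 of 16 (43.8%) among members above the array median on all arrays and 10 of 45 (22.2%) among the others. The core motif of the photoreceptor factor CRX (TAATCC, either strand) stood in 1 of the 61 windows (1.64%), that of Kcnj9, against 5.51% of measured genes. An E-box (CACCTG, either strand) stood in 17 (27.9%) against 16.9%, and TATAAA on the strand of the gene in 2 (3.28%), those of Kcnj13 and Kcnj9, against 5.86%. These are matches of letters, not binding sites. The 3 windows below belong to the brightest member, to the brightest Kir gene and to the member with the lowest p, and show the contrast in composition, with capitals for CG dinucleotides and for the TATAAA of Kcnj13.
Kcnc1 (chr7:46396218-46396467, plus strand): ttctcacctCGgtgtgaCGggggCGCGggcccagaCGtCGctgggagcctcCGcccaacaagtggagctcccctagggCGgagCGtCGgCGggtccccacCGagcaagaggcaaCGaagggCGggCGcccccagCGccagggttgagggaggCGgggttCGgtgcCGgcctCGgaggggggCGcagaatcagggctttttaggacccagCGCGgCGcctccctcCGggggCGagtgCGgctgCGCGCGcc
Kcnj13 (chr1:87394730-87394979, minus strand): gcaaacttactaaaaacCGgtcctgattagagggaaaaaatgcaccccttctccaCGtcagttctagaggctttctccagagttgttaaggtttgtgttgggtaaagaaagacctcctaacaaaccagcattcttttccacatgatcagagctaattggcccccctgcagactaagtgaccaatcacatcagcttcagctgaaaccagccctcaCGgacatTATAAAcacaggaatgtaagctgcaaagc
Kcnk5 (chr14:20181783-20182032, minus strand): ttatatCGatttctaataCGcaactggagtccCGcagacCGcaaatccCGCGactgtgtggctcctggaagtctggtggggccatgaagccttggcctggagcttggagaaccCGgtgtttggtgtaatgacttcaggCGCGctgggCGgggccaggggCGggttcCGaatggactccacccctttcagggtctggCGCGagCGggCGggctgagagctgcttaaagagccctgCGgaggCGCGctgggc
The Kcnc1 window held 30 CG dinucleotides at 74.4% G and C, the Kcnk5 window 19 at 62.8%, and the Kcnj13 window 3 at 45.2%, with TATAAA starting 29 bases before the start site.

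The comparison of Trim9 KO with WT asks whether loss of Trim9 alters channel transcripts in the adult retina. With limma over all 45037 probe sets, 0 members passed an adjusted p of 0.05 and so did 0 probe sets in all (0%), with a lowest adjusted p among members of 0.999. At an unadjusted p under 0.05, 1 member was higher in KO (Kcnk5) and 0 were lower, against 1.82% and 0.737% of all genes. The KO mean was higher for 43 members and lower for 38, and 53.1% higher stood beside 55.2% of all genes. The median difference was 0.11 for the members and 0.14 for all genes, and single members ran from -2.44 to 2.42. In 6 members (7.41%) all KO arrays were above all WT arrays, against 5.35% of all genes, and in 0 members (0%) all were below, against 2.89%. The members' shares were thus near the background of the array. Which members did not overlap depended on the scaling of the arrays: of the 6, Kcnh1 alone still did not overlap with quantile normalization and Kcnk5 alone with equal array medians.

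**Figure D3:**
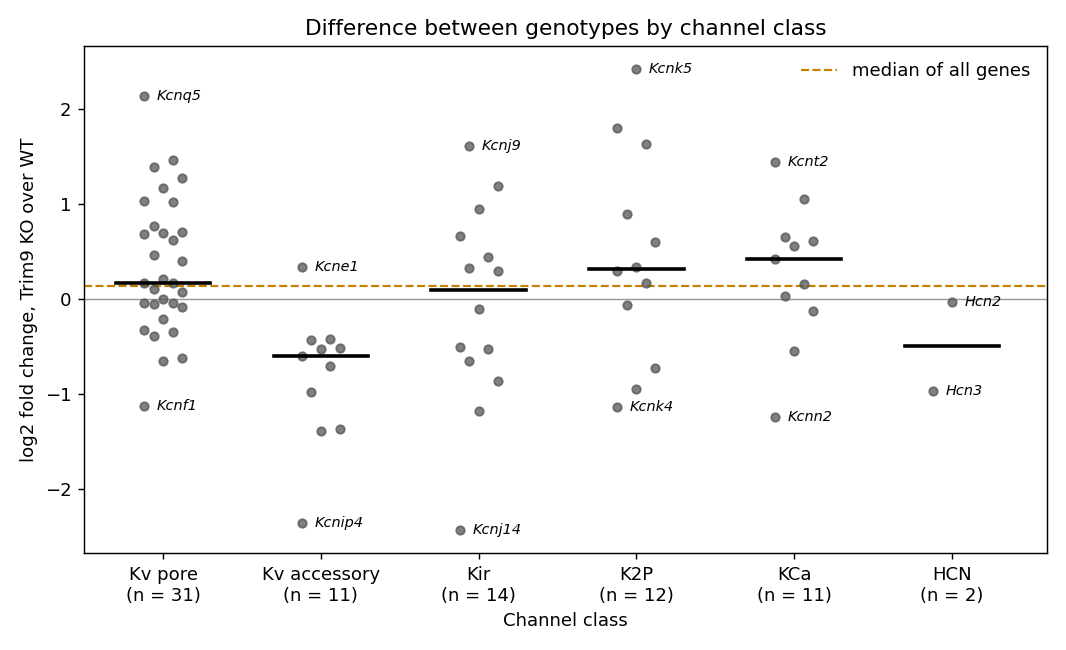
Difference in log2 intensity, Trim9 KO minus WT (vertical axis), of each of the 81 members, by channel class (horizontal axis), with class medians as bars and a dashed line at the median of all genes. No gene passes an adjusted p of 0.05, and 10 of the 11 Kv accessory subunits lie below 0.

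Kcnk5, an acid-sensitive K2P channel, had log2 intensities of 10.06, 8.48 and 6.77 on the KO arrays, against 6.55, 6.43 and 5.07 on the WT arrays. All KO arrays were higher, but Trim9 KO replicate 3 exceeded WT replicate 1 only slightly, and all WT values were under 8.31, the level of the median probe set. The means were 8.44 ± 1.65 in KO and 6.02 ± 0.82 in WT (SD, n = 3 each), a difference of 2.42 (SE 1.09, limma p = 0.0479, adjusted p = 0.999, exact permutation p = 0.1). Both of its probe sets had the higher KO mean, by 2.42 and 2.65. In the dimmer one the genotypes overlapped, with 4.58 on Trim9 KO replicate 3 against 6.04 on WT replicate 2. Without Trim9 KO replicate 1 the difference was 1.61.

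Kcnq5, a subunit of the M current that restrains repeated firing, had 10.43, 10.13 and 9.40 on the KO arrays, against 8.91, 6.37 and 8.27 on the WT arrays. The means were 9.99 ± 0.53 in KO and 7.85 ± 1.32 in WT (SD, n = 3 each), a difference of 2.14 (SE 1.01, limma p = 0.0584, adjusted p = 0.999, exact permutation p = 0.1). WT replicate 2 was the low array, and without it the difference was 1.40. All 3 of its probe sets had the higher KO mean, by 0.61 to 2.14, but only in the brightest did the genotypes not overlap.

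Both sodium-activated channel genes also did not overlap on the deposited scale, and both overlapped with quantile normalization and with equal array medians. Kcnt2 had 9.90, 9.53 and 9.81 on the KO arrays, against 8.74, 9.45 and 6.71 on the WT arrays, a difference of 1.45 (SE 1.02, limma adjusted p = 0.999, exact permutation p = 0.1) that was 0.65 without WT replicate 3. Kcnt1 had 9.90, 11.09 and 10.35 on the KO arrays, against 9.58, 9.17 and 9.43 on the WT arrays, a difference of 1.05 (SE 0.91, limma adjusted p = 0.999, exact permutation p = 0.1). In Kcnt1 the WT arrays lay close together, and the lowest KO array was Trim9 KO replicate 1. Of its 3 probe sets 2 were higher in KO and 1 lower (-0.03 to 1.05), and with averaged probe sets the difference was 0.44.

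The remaining non-overlapping members were Kcnh1, of the ether-a-go-go family, and the silent subunit Kcns3. Kcnh1 had 11.09, 10.65 and 11.28 on the KO arrays, against 9.50, 10.15 and 10.29 on the WT arrays, a difference of 1.03 (SE 0.91, limma adjusted p = 0.999, exact permutation p = 0.1). In its dimmer probe set the difference was 0.21 and the genotypes overlapped. With averaged probe sets the Kcnh1 difference was 0.62, and the genotypes overlapped. Kcns3 had 7.23, 8.10 and 8.10 on the KO arrays, against 7.20, 6.92 and 6.99 on the WT arrays, a difference of 0.77 (SE 0.91, limma adjusted p = 0.999, exact permutation p = 0.1). Kcns3 was below 8.31 on every array, and its Trim9 KO replicate 1 was hardly above WT replicate 1.

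Others with large positive differences overlapped between genotypes. Kcnh3, a relative of Kcnh1, had 11.81, 11.64 and 11.19 on the KO arrays, against 11.24, 9.80 and 9.45 on the WT arrays (difference 1.38, SE 0.95, limma adjusted p = 0.999, exact permutation p = 0.2), and all 4 of its probe sets were higher in KO, by 1.03 to 3.15. The stretch-sensitive K2P channels differed in direction among themselves. Kcnk10 had 12.27, 9.49 and 8.88 on the KO arrays, against 8.24, 9.22 and 7.79 on the WT arrays, with a difference of 1.79 that was 0.77 without Trim9 KO replicate 1. Kcnk2 had 10.90, 9.49 and 7.94 on the KO arrays, against 8.01, 6.55 and 8.88 on the WT arrays, a difference of 1.63 that was 0.90 without Trim9 KO replicate 1 and 1.00 without WT replicate 2. Their relative Kcnk4 had the lower KO mean, with 7.94, 8.43 and 7.57 on the KO arrays, against 8.69, 10.74 and 7.91 on the WT arrays (difference -1.13, and -0.32 without WT replicate 2). None of these 3 passed (limma adjusted p = 0.999 for each).

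The lowest KO means relative to WT belonged to Kcnj14 and Kcnip4. The Kcnj14 values above gave a difference of -2.44 (SE 1.58, limma adjusted p = 0.999, exact permutation p = 0.3), which was -1.21 without Trim9 KO replicate 3, -1.49 without WT replicate 3, -3.80 without Trim9 KO replicate 1 and -4.02 without WT replicate 1. Kcnip4 had log2 intensities of 5.89, 11.13 and 13.77 on the KO arrays, against 13.56, 11.86 and 12.44 on the WT arrays, a difference of -2.36 (SE 1.67, limma adjusted p = 0.999, exact permutation p = 0.5). Its low value was on Trim9 KO replicate 1 alone, and the difference was -0.17 without that array and -4.11 without Trim9 KO replicate 3. The other probe sets of Kcnip4 had differences of -0.16 and 0.40, and in the latter Trim9 KO replicate 1 was at 11.17. With averaged probe sets the Kcnip4 difference was -0.71. Kcnab2, the major Kv beta subunit of brain, had 8.60, 11.89 and 11.69 on the KO arrays, against 11.30, 11.51 and 13.54 on the WT arrays, a difference of -1.39 that was -0.32 without Trim9 KO replicate 1 and -0.68 without WT replicate 3 (limma adjusted p = 0.999). Kcnj11 had a difference of -1.18 from the values above, and -0.47 without Trim9 KO replicate 1. Its dimmer probe set went the other way, with a difference of 0.97. With averaged probe sets the Kcnj11 difference was -0.11.

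**Figure D4:**
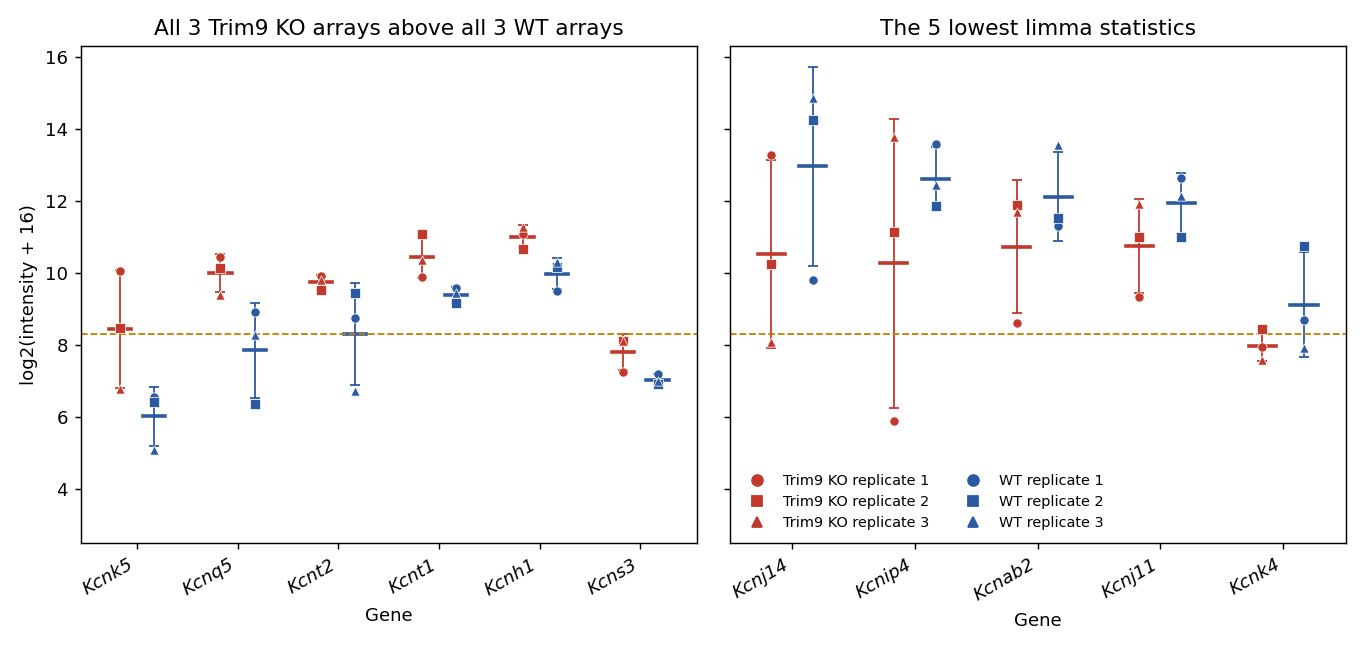
Log2 intensity (vertical axis) on each array of the 6 members without overlap (left) and of the 5 with the lowest limma statistics (right), Trim9 KO arrays left of WT arrays, with mean and SD (n = 3 each) and a dashed line at the median of all probe sets. Kcnq5 and Kcnk5 do not overlap between genotypes, and the lowest Kcnip4 point, 5.89, is Trim9 KO replicate 1.

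Among the 5 classes with more than 2 genes, the Kv accessory subunits had the most one-sided differences: 1 of 11 had the higher KO mean and 10 the lower, with a median of -0.61 and 0 past an adjusted p of 0.05. All 4 Kcnip genes (median -1.18) and all 3 Kcnab genes (median -0.71) had lower KO means, and the member with the higher KO mean was Kcne1 (0.34). These signs were those of the brightest probe set. Kcnab1, Kcnab3, Kcnip1, Kcnip2 and Kcnip4 each also had a probe set higher in KO, whereas Kcnab2 and Kcnip3 had none. With averaged probe sets, 6 of the 7 Kcnip and Kcnab genes had lower KO means. In the Kcnip and Kcnab genes the KO arrays were not uniformly low. Kcnip1 had 10.16, 8.06 and 8.10 on the KO arrays, against 7.33, 10.43 and 11.51 on the WT arrays, and Kcnip3 had 8.77, 7.60 and 5.94 on the KO arrays, against 6.31, 9.94 and 10.17 on the WT arrays. Kcnab3 had 8.13, 9.23 and 8.03 on the KO arrays, against 5.70, 11.17 and 10.32 on the WT arrays. In all 3 genes WT replicate 1 was below WT replicates 2 and 3, and the genotypes overlapped. Kcnip1 and Kcnip3 were, like Kcnj14, higher on Trim9 KO replicate 1 and WT replicates 2 and 3 than on the other arrays. The Actb ratio was 2.83 to 9.87 on the former arrays and 20.2 to 94.5 on the latter. Kcnip2, Kcnip4, Kcnab1, Kcnab2 and Kcnab3 did not follow that ratio. Its part in the class difference was not tested. The class median was negative in all 13 alternatives that could move it (-1.23 to -0.44), with 7 to 11 of 11 genes lower (8 of 8 with only probe sets above the median), while 41.2 to 57.2% of all genes were lower. The count of 7 was without WT replicate 2.

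The other classes were mixed. The KO mean was higher for 19 of 31 Kv pore subunits (median 0.17), 7 of 14 Kir (0.09), 8 of 12 K2P (0.31), 8 of 11 KCa (0.41) and 0 of 2 HCN (-0.50). The 9 silent Kv subunits had 7 higher KO means (median 0.62), and all 4 BK subunits and both Kcnt genes had higher ones. Each of these 5 class medians took the opposite sign under at least 1 alternative: for example, that of KCa was -0.30 without WT replicate 1, that of Kv pore was -0.15 with equal array medians, and that of HCN was 0.25 without WT replicate 3.

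Probe sets of 1 gene often went separate ways. Of 45 members with several probe sets, 21 had the same sign in all (46.7%, 18 higher and 3 lower), against 37.6% of 9010 such genes. For Kcnma1, 2 of 5 probe sets were higher in KO and 3 lower, from -1.31 to 2.06. The 4 probe sets of Kcnc1 ran from -1.46 to 3.50. The one at 3.50, a dim probe set singled out after its values were seen, had 9.54, 8.80 and 8.50 on the KO arrays, against 5.49, 5.78 and 5.06 on the WT arrays (SE 0.92, limma p = 0.0027, limma adjusted p = 0.999; no permutation test was run), while the brightest probe set of Kcnc1 had -0.21 (SE 1.24). Which part of the transcript each reads was not analysed here. It was 1 of 3 of the 159 member probe sets higher at an unadjusted p under 0.05, where 2% of all probe sets were, and 0 were lower, where 0.877% were. All KO arrays were above all WT arrays in 9 of the 159, against 5.16% of all probe sets, and below in 0, against 2.76%.

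Proteins that assemble with, anchor or accompany these channels were read from a list of 27, of which 23 were measured. Of these, 20 were above the median of all probe sets, 11 had the higher and 12 the lower KO mean, the median difference was -0.00 and 0 passed, also at an unadjusted p under 0.05. They ran from -1.76 for Dlg4, a scaffold of the postsynaptic density, to 2.37 for Lrrc26, a BK accessory subunit. Ank2, an ankyrin that ties membrane proteins to the cytoskeleton, was the 1 partner of 23 whose genotypes did not overlap, where 2.89% of all genes had all KO arrays below all WT arrays. It had 14.35, 13.90 and 14.48 on the KO arrays, against 14.84, 14.76 and 14.55 on the WT arrays (difference -0.47, SE 0.90, limma adjusted p = 0.999).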

How the data were processed

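The values deposited by the authors were linear intensities per probe set, scaled on each array to the same trimmed mean (2% left out at each end). MAS5 stands in the submitters' processing notes (no version), whereas the methods of the study state RMA, and the linear scale and unequal medians are not those of RMA output. All 6 arrays were used, without detection calls, and their number limits the precision.

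Of 45101 probe sets, 64 controls were left out. The other 45037 were compared on the log2(intensity + 16) scale with limma 3.58.1 (lmFit, eBayes; R 4.3.3) without filter or block, and p-values were adjusted by Benjamini and Hochberg with a threshold of 0.05. This scale understates differences of dim genes. GEO's platform annotation named 1 gene for 34945 probe sets, several for 932 and none for 9160. All 81 members matched the gene reference by gene number. Permutation tests were exact and two-sided. The fit was also run on simulated data with known changes, but what it recovers at the spread of these arrays is not given here.

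The members, lists and tests were chosen with earlier results of these data known. Genes were named as follows: both HCN genes; the 3 brightest and the dimmest of each other class; the 5 highest and 5 lowest limma statistics; Kcnv2, Kcnma1 and Kcnj13; and the 3 highest and 3 lowest differences among non-overlapping members above the median. Genes outside this rule, such as Kcns3, Kcnip1, Kcnip3 and Kcnab3, were named after their values were seen. Results were recomputed with quantile normalization, equal array medians, pseudocounts of 1 and 64, a filter at the median, averaged probe sets per gene, limma's trend with a robust prior, array weights, a replicate block and leaving out each array. Python 3.11.15 with pandas 2.3.3 and matplotlib 3.10.9 made the figures.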

Additional observations from a re-analysis of the deposited data

How the results depend on the processing

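No alternative gave a probe set or member past an adjusted p of 0.05, and members at an unadjusted p under 0.05 numbered 0 to 2 higher and 0 to 1 lower. Members with all Trim9 KO arrays above all WT arrays numbered 3 with quantile normalization and 2 with equal array medians, against 6, and 6 to 16 when 1 array was left out (16 without WT replicate 2). Those below numbered 1, 1 and, with averaged probe sets, 2, and 0 to 8 when 1 array was left out (8 without WT replicate 1). With 1 array left out, fewer arrays have to be apart for a gene not to overlap. The shares of all genes for these counts under the alternatives were not computed, so the counts have no background beside them. The median difference of all members was -0.22 (equal medians) to 0.42 (without WT replicate 2), and that of KCa was -0.30 to 0.93 when 1 array was left out. With only probe sets above the median, the median level was 10.61 for Kv pore, 10.47 for Kv accessory and 9.57 for Kir. With averaged probe sets it was 8.68 for Kv pore and 8.09 for Kv accessory, and the order of the classes below Kv pore changed. The filter left out Hcn2, Hcn3, Kcnk5 and Kcns3. Hcn2 was 0.022 with a pseudocount of 64, 0.76 with array weights and -0.99 to 0.95 when 1 array was left out. Kcnma1 was -0.16 with equal medians, -0.022 with averaged probe sets and -0.44 to 1.09 when 1 array was left out. Kcnj13 was -0.22 to 1.17 when 1 array was left out (-0.22 without Trim9 KO replicate 3). The cause of these changes was not tested.

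The labels do not say whether a replicate number marks a shared litter, and the main fit did not pair the samples. Deviations of same-numbered arrays from their genotype means correlated at -0.23, -0.08 and 0.03. Those of differently numbered arrays correlated at -0.29 to 0.28. With 3 arrays per genotype, these correlations cannot show whether the samples were paired. With a replicate block, 0 members and 0 probe sets passed, and 0 members were higher at an unadjusted p under 0.05.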
